A study of Mus musculus with 4 samples.

Results

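Interferon response genes were followed in mouse liver with and without a transgene for viral oncoproteins, as 9 genes chosen by name: Rsad2, Ifit1, Ifit2, Ifit3, Isg15, Irf1, Irf7, Irf8 and Gbp2. Every probe set of the array whose single platform gene symbol is 1 of these names was taken, which gave 10 probe sets (2 for Irf7 and 1 for each other gene) of the 12422 that are not controls, and 9 genes of the 8251 named on the array. Total RNA came from the livers of male B6SJL hybrids aged 50 to 66 days. After weaning, both groups ate the same diet, with 65% protein and 10% carbohydrate, for 4 weeks. The wild-type mice carry no transgene. The PEPCK-TAg mice carry a transgene encoding large T antigen and small t antigen of the virus SV40. Its name gives the promoter as that of PEPCK, a gluconeogenic enzyme of liver and kidney. Each group had 2 Affymetrix MG_U74Av2 arrays, and no label says whether a group's arrays represent separate mice or pools. All p-values therefore measure the spread between these arrays, which may be technical.

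Interferons are secreted proteins by which a cell that has sensed a virus warns its neighbours. Type I interferons (alpha and beta) act through the receptor pair Ifnar1 and Ifnar2, and interferon-gamma, made by lymphocytes, acts through Ifngr1 and Ifngr2. Kinases of the JAK family then activate STAT proteins. STAT proteins joined by IRF9 bind a DNA element called ISRE, and pairs of STAT proteins bind an element called GAS. Among the members, Rsad2 (viperin), Ifit1, Ifit2, Ifit3 and Isg15 are effectors best known from the type I response, Gbp2 is a guanylate-binding GTPase strongly induced by interferon-gamma, and Irf1, Irf7 and Irf8 are transcription factors of the pathway. In liver, hepatocytes and Kupffer cells both answer interferons.

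The DNA before the start sites was searched for the core letters of these elements. The stretches with a match are printed because they separate the members with a match by core. A match, as for the GAS core before 1 start of Ifit2, is of letters only, and the use of an element was not tested. In the RefSeq promoter table (mouse build GRCm38.p6), all 9 genes were found, with 12 windows in all because Ifit2, Irf1 and Irf8 have 2 start sites each. The 250 bases before each start were searched for the ISRE core GAAANNGAAA on either strand (TTTCNNTTTC on the other) and for the GAS core TTCNNNGAA, which reads the same on both strands. Matches are in capitals, 5′ to 3′ on the gene's strand, and stretches that overlap an annotated gene are limited to 30 bases. The ISRE core was found before Rsad2 (chr12:26456543-26456592, minus strand), Ifit1 (chr19:34640785-34640813, plus strand), Ifit3 (chr19:34583363-34583392 and chr19:34583397-34583426, plus strand), Isg15 (chr4:156200855-156200916, minus strand, 3 overlapping matches) and Gbp2 (chr3:142620584-142620633, plus strand). The GAS core was found before Irf1 (chr11:53769904-53769952, plus strand), Irf8 (chr8:120736167-120736233, plus strand) and 1 start of Ifit2 (chr19:34550444-34550481, plus strand).
Rsad2, ISRE core: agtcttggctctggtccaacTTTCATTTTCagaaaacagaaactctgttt
Gbp2, ISRE core: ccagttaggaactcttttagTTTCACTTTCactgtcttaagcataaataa
Ifit1, ISRE core: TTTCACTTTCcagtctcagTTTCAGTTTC
Ifit3, ISRE core, farther match: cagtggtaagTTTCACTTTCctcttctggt
Ifit3, ISRE core, nearer match: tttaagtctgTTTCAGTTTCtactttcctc
Isg15, ISRE core: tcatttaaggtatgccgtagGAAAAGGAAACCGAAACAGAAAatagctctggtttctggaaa
Irf1, GAS core: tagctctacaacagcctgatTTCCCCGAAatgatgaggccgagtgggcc
Irf8, GAS core: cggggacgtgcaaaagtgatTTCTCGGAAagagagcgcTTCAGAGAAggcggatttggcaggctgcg
Ifit2, GAS core: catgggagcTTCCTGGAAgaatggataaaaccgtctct

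Among all 32851 windows of the table, 978 (2.98%) hold the ISRE core and 2306 (7.02%) the GAS core in those 250 bases. Of the 12 member windows, 5 hold the ISRE core and 3 the GAS core, and none holds both. The window of Irf7 holds neither, which says only that these letters are not in it. Ifit1 and Ifit3 share 2 ISRE cores with the same letters, and the first of these, TTTCACTTTC, also stands before Gbp2. Of the 110 windows of the wider interferon pathway genes described below, 35 (31.8%) hold the ISRE core and 22 (20%) the GAS core.

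The deposited values are MAS5 signals on a linear scale. Signals were scaled to a common trimmed mean, raised to a floor of 10.6 and put on the log2 scale, and a probe set was tested where at least 2 of the 4 arrays lay above 41.3. All 10 member probe sets were tested, among 7877 in all. The median signal over all probe sets ranged from 66.6 to 84.7 on the 4 arrays. Alb (albumin), which defines hepatocytes, read 9379 to 17286 on them. Wild-type 1 and PEPCK-TAg 1 were scanned on 1 day, and wild-type 2 and PEPCK-TAg 2 each on a day of its own. Wild-type 2 alone was read on the other scanner type, and PEPCK-TAg 2 alone was washed on the other fluidics station. Chip lot cannot be told apart from group, because both PEPCK-TAg arrays came from 1 lot and the wild-type arrays from 2 others.

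Rsad2, Irf8 and Gbp2 rose in PEPCK-TAg liver, by 2.75-fold, 2.53-fold and 2.29-fold, and no member fell. These 3 of 10 probe sets passed a Benjamini-Hochberg adjusted p of 0.05 in limma's moderated test, where 9.1% of all probe sets tested passed as higher, 3.4% as lower and 12.5% either way. The remaining 7 probe sets did not pass: those of Ifit1, Ifit2, Ifit3, Isg15, Irf1 and both of Irf7. For 5 of the 10 both PEPCK-TAg arrays lay above both wild-type arrays, against 33.3% of all probe sets tested, and for 0 they lay below, against 26.5%. The groups were 2-fold or more apart in 4 of those 5, against 14.7%. The median log2 difference of the 10 was 0.46, and that of all probe sets tested was 0.051. The number of calls rested on single arrays: it was 5 without wild-type 1, 2 without wild-type 2 (Ifit2 and Rsad2) and 0 without either PEPCK-TAg array, while 16%, 11.6%, 1.44% and 1.18% of all probe sets passed as higher without wild-type 1, wild-type 2, PEPCK-TAg 1 and PEPCK-TAg 2. Under quantile normalization 0 of the 10 passed, against 7.22% of all probe sets as higher.

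**Figure D1:**
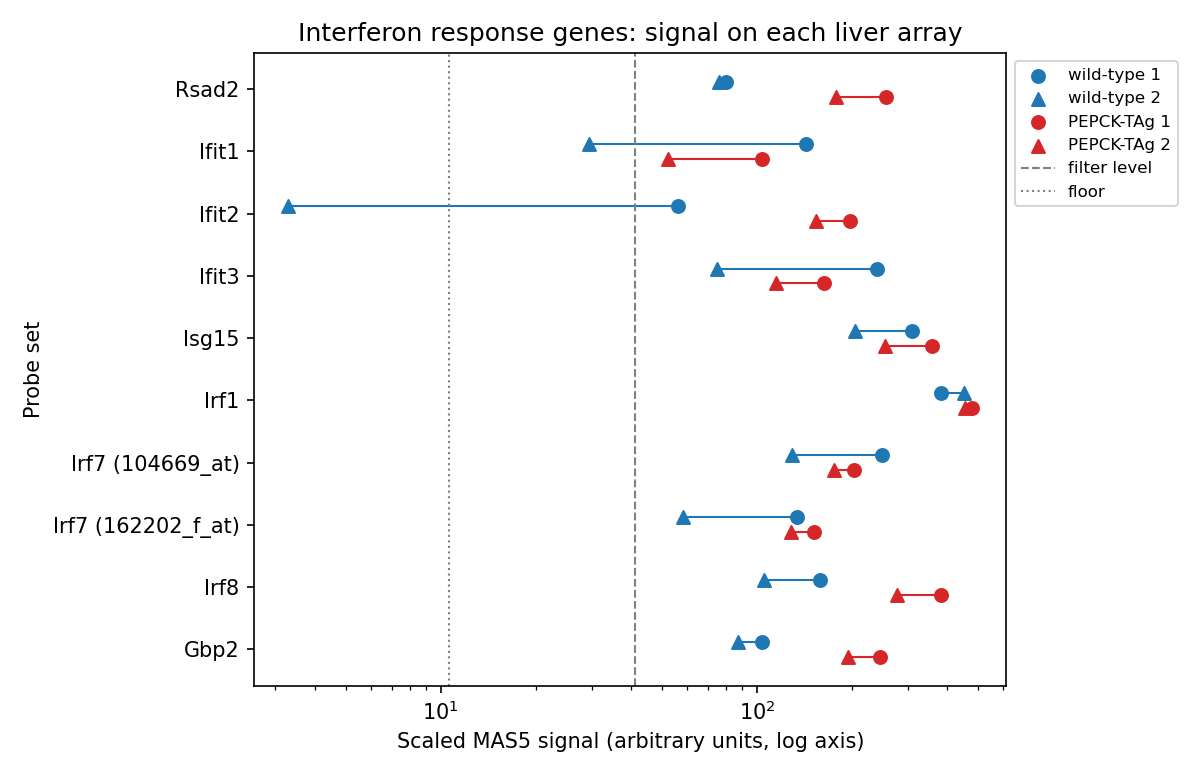
Scaled MAS5 signal (arbitrary units, log axis) of the 10 probe sets of the interferon response genes, with 1 point per array and a line joining the 2 arrays of a group. The PEPCK-TAg arrays of Rsad2, Ifit2, Irf8 and Gbp2 lie to the right of both wild-type arrays, and the wild-type arrays of Ifit1, Ifit2 and Ifit3 lie far apart.

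Rsad2 encodes viperin, an enzyme that makes a chain-ending nucleotide and so blocks viral RNA synthesis. Its signal was 80.1 and 75.7 without the transgene and 256 and 178 with it. Both transgenic arrays lay above both wild-type arrays, and the wild-type arrays differed by only 1.06-fold. The log2 difference was 1.46 ± 0.31 (SE, n = 2 arrays per group, limma adjusted p = 0.0287). Between the arrays that share a scan day it was 1.68, with no error. The call was lost under quantile normalization (1.19, adjusted p = 0.0566), without PEPCK-TAg 1 (1.197, adjusted p = 0.199) and without PEPCK-TAg 2 (1.72, adjusted p = 0.0836). It was also lost without the filter (adjusted p = 0.135) and when the fluidics station was a block (adjusted p = 0.178).

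The IFIT proteins bind viral RNA and dampen its translation, and the 3 genes lie close together on chromosome 19. Ifit2 had the largest difference of the members, but its wild-type arrays disagreed. It read 56.4 and 3.30 without the transgene and 196 and 154 with it, so that the groups did not overlap while wild-type 2 lay below the floor. With that array set to the floor, the log2 difference was 2.83 ± 0.74 (SE) and did not pass (limma adjusted p = 0.0552, 95% interval 1.05 to 4.62). Its size moves with the floor, and was 1.85 with the floor at the 40th percentile (adjusted p = 0.0205). With either wild-type array left out it passed, at 4.02 without wild-type 1 (adjusted p = 1.12e-05, against the array set to the floor) and at 1.63 without wild-type 2 (adjusted p = 0.0106), where the lone wild-type array is assumed to vary like the other group.

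Ifit1 read 143 and 29.5 without the transgene and 103 and 52.2 with it. Both transgenic arrays lay between the wild-type ones, and the log2 difference was 0.18 ± 0.75 (SE, adjusted p = 0.899, 95% interval -1.62 to 1.98). Its sign turned in the pair of 1 scan day (-0.46) and without wild-type 2 (-0.96). Ifit3 read 241 and 74.9 against 163 and 115, again with both transgenic arrays inside the wild-type range. Its log2 difference was 0.030 ± 0.55 (SE, adjusted p = 0.980, 95% interval -1.29 to 1.35), -0.56 in the pair of 1 scan day and -0.81 without wild-type 2. For Ifit1 and Ifit3 the intervals leave room for a change of 2-fold in either direction. Close relatives lie between them in the annotation (Ifit3b, Ifit1bl1 and Ifit1bl2), and the probes were not checked against these.

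Isg15 is a small ubiquitin-like protein that is joined to other proteins after interferon exposure. It read 309 and 204 without the transgene and 358 and 254 with it, and the groups overlapped. The log2 difference was 0.26 ± 0.32 (SE, adjusted p = 0.621, 95% interval -0.51 to 1.03). Gbp2 read 104 and 87.4 against 246 and 194, with no overlap. Its log2 difference was 1.19 ± 0.29 (SE, adjusted p = 0.0438), and 1.24 in the pair of 1 scan day. Gbp2 lost its call under quantile normalization (0.92, adjusted p = 0.0888), without wild-type 2 (1.07, adjusted p = 0.0610), without PEPCK-TAg 1 (1.02, adjusted p = 0.249) and without PEPCK-TAg 2 (1.36, adjusted p = 0.146).

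Of the transcription factors, Irf8 rose, and Irf1 and Irf7 did not pass. Irf8 directs the development of monocytes, dendritic cells and B cells and is little used by hepatocytes. It read 158 and 106 without the transgene and 384 and 278 with it, with no overlap. The log2 difference was 1.34 ± 0.32 (SE, adjusted p = 0.0434), and 1.28 in the pair of 1 scan day. This call too was lost under quantile normalization (1.11, adjusted p = 0.0798), without wild-type 2 (1.05, adjusted p = 0.0514), without PEPCK-TAg 1 (1.11, adjusted p = 0.246) and without PEPCK-TAg 2 (1.57, adjusted p = 0.130). The calls of Irf8 and Gbp2 were both lost, too, with the floor at the 40th percentile (adjusted p = 0.0625 and 0.0579), without the filter (0.192 and 0.135), without the intensity trend (0.0593 and 0.0514), and with the fluidics station (0.244 and 0.230) or the scanner type (0.0911 and 0.0995) as a block.

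Irf1, the factor induced by interferon-gamma through the GAS element, read 383 and 453 without the transgene and 479.9 and 455 with it. The groups did not overlap, by a narrow margin, and the log2 difference was 0.17 ± 0.24 (SE, adjusted p = 0.674, 95% interval -0.41 to 0.74). The upper end of that interval lies below a 2-fold rise. Irf7, which amplifies the type I response, has 2 probe sets. The one with no suffix for shared probes read 249 and 129 against 204 and 175, and its log2 difference was 0.072 ± 0.37 (SE, adjusted p = 0.918, 95% interval -0.81 to 0.96). The other, whose suffix marks probes shared within a family, read 134 and 58.2 against 152 and 128 (0.66 ± 0.44 SE, adjusted p = 0.355). Of the pair, the latter alone passed without wild-type 1 (1.26, adjusted p = 0.0406). The groups overlapped in both probe sets.

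**Figure D2:**
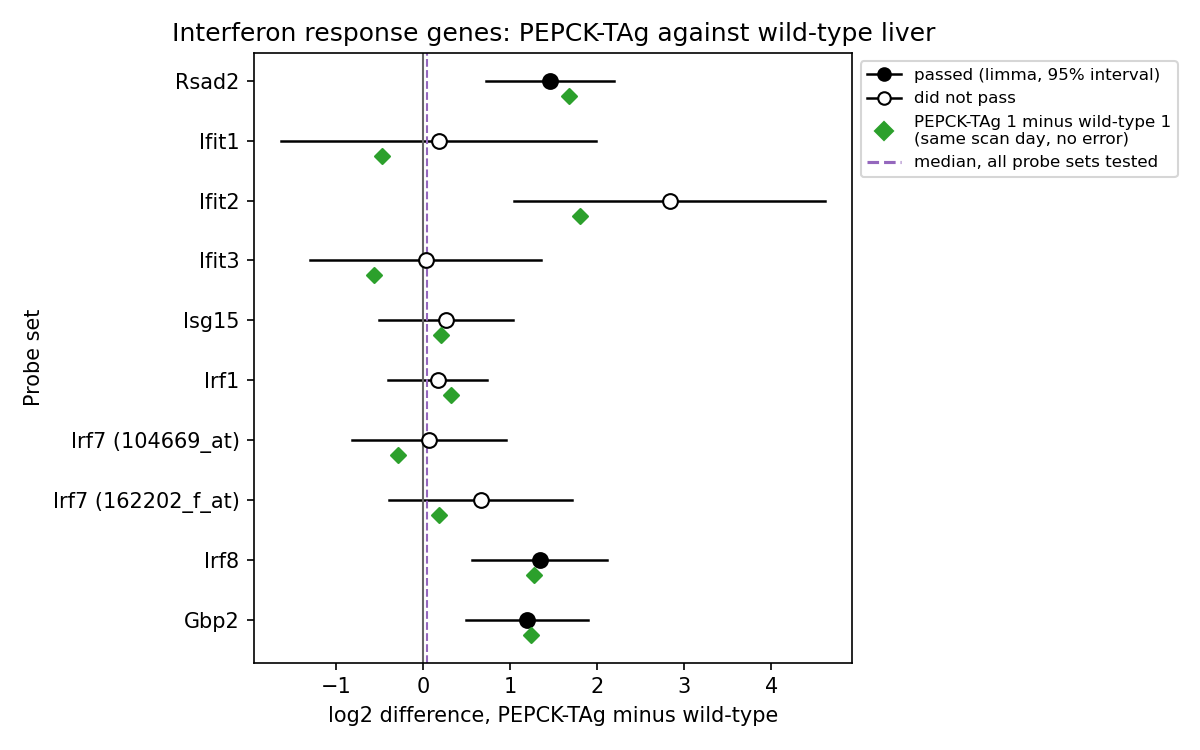
Log2 difference between PEPCK-TAg and wild-type liver for the 10 probe sets, with limma's 95% intervals, and the difference of the 2 arrays scanned on 1 day as diamonds. Rsad2, Irf8 and Gbp2 passed, and the same-day differences of Ifit1, Ifit3 and the Irf7 probe set with no suffix for shared probes lie below 0.

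The wild-type arrays differed from each other in most members, in all but Irf1 with wild-type 1 the higher. Of the 10 member probe sets, 9 were higher on wild-type 1 than on wild-type 2, and 6 were at least 1.5-fold higher. Over all probe sets tested, 16.2% were at least 1.5-fold higher on wild-type 1 and 13.8% on wild-type 2, which held for 0 of the members. The gap was 4.84-fold for Ifit1, 5.32-fold for Ifit2 with wild-type 2 set to the floor, 3.21-fold for Ifit3, 2.30-fold and 1.92-fold for the Irf7 probe sets and 1.52-fold for Isg15. The absolute gaps of Ifit1 and Ifit2 exceeded those of 99.2% and 99.4% of all probe sets tested. Rsad2 and Gbp2 (1.06-fold and 1.19-fold) lay below the median absolute gap, and Irf1 was lower on wild-type 1 (log2 difference -0.24). Irf8 was 1.497-fold higher on wild-type 1.

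The PEPCK-TAg arrays leaned the same way by less. All 10 member probe sets were higher on PEPCK-TAg 1 than on PEPCK-TAg 2, by 1.05-fold (Irf1) to 1.98-fold (Ifit1), and only Ifit1 passed 1.5-fold, against 9.25% of all probe sets tested. The reverse, PEPCK-TAg 2 at least 1.5-fold higher, held for 12.3% of all probe sets and 0 members. In 9 of 10 the array numbered 1 was the higher in both groups, against 28.6% of all probe sets tested. Wild-type 1 and PEPCK-TAg 1 share a scan day and wild-type 2 has a scanner type of its own. The part of scan day and scanner in this spread was not tested.

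The same spread appeared in other genes of the pathway, given here by the brightest tested probe set of each gene. Of 67 pathway genes tested, 25 were at least 1.5-fold higher on wild-type 1 and 3 on wild-type 2, against 15.3% and 13.4% of all genes tested. The interferon-inducible GTPases, which attack the vacuoles of parasites, showed it most: 6 of 7 were at least 1.5-fold higher on wild-type 1, and all 7 were higher on the array numbered 1 in both groups, against 29.1% of all genes. On PEPCK-TAg 1, 5 of the 7 were at least 1.5-fold above PEPCK-TAg 2, against 8.88%. Igtp read 1465 and 382 without the transgene and 726 and 444 with it. Psmb9, a subunit of the immunoproteasome, read 759 and 193 against 627 and 403, and Usp18, the protease that removes Isg15 from proteins, 445 and 138 against 436 and 351. Ifih1, a sensor of viral RNA, read 689 and 184 against 621 and 350.4. These 4 genes were picked after their values were seen. In all 4 both PEPCK-TAg signals lay between the wild-type ones. Of the cell type markers, 1 of 7 for hepatocytes, 1 of 10 for macrophages and Kupffer cells, and 3 of 5 for endothelial cells were at least 1.5-fold higher on wild-type 1. Of the endothelial markers, Pecam1 was at least 1.5-fold higher on wild-type 2. Their sum, 2250 on wild-type 1 and 1131 on wild-type 2, came mostly from Eng (1799.6 and 734), and their part in the spread was not tested.

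**Figure D3:**
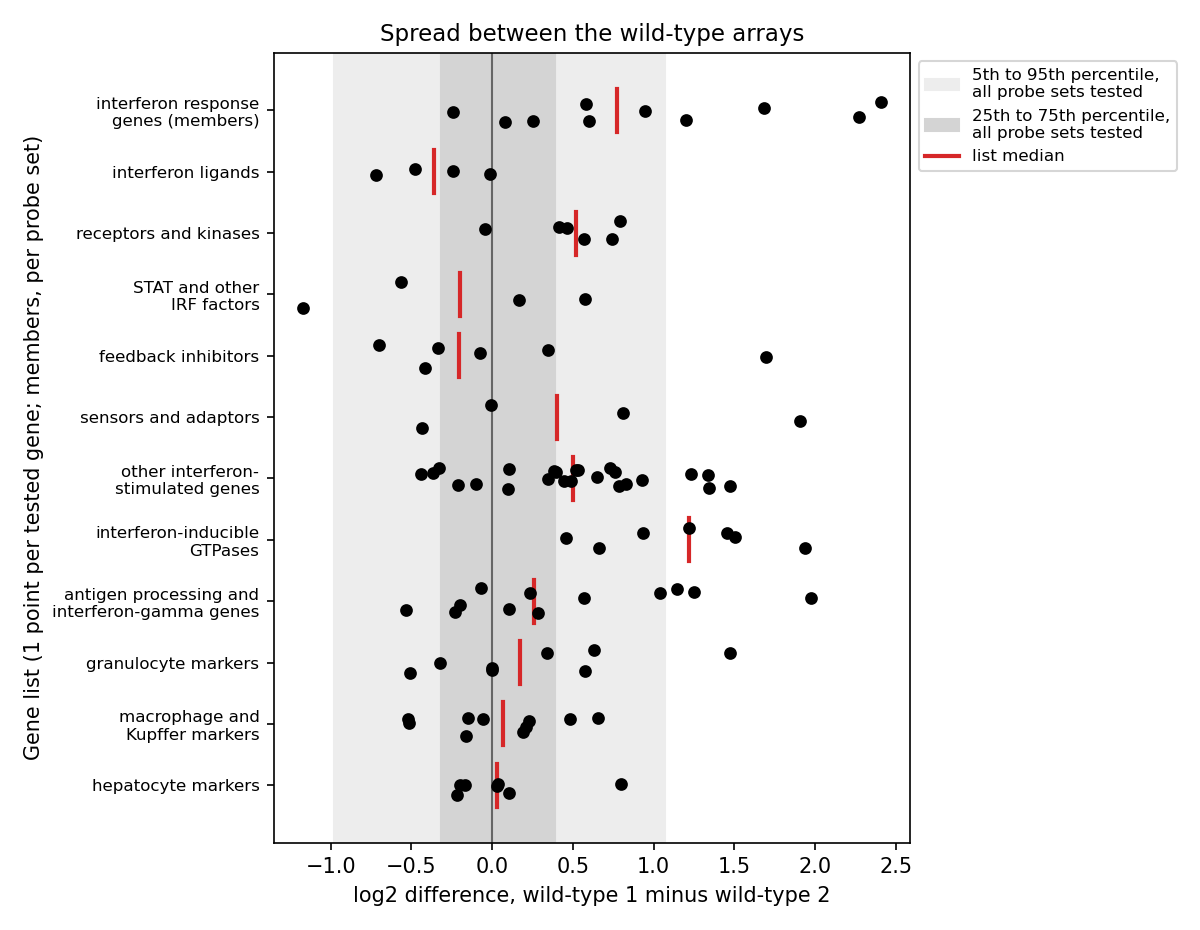
Log2 difference between wild-type 1 and wild-type 2 for the members, 8 lists of other interferon pathway genes and 3 lists of cell type markers, with each list's median as a red line and grey bands for all probe sets tested. The members and the GTPases lie mostly to the right of the darker band, and the hepatocyte markers lie around 0.

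Across the wider pathway few genes passed between the groups. The lists name 127 genes, of which 80 have a probe set named for them alone and 67 were tested. Of the 67, 3 rose and 1 fell, against 9.56% and 3.34% of all genes tested, and their median log2 difference was 0.34, against 0.072 over all genes. The groups did not overlap in 25 higher and 14 lower genes of the 67, against 34.7% and 26.2% of all genes. These calls too rested on single arrays. Their number changed when either wild-type array was left out, and no call held without either PEPCK-TAg array. Each such fit leaves 1 array in a group, so its counts are not given here.

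No ligand gene passed. The probe sets of Ifng and Ifnb1 lay below the filter level on all 4 arrays, at 0.60 to 2.70 for Ifng and 5.10 to 26.9 for Ifnb1, and those of Ifna4, Ifna7 and Ifna11 were not tested either. Ifna2, Ifna5, Ifna9 and Ifnab were tested with probes shared within the alpha family. Their log2 differences lay between -0.53 and -1.35, and none passed.

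Among the receptors and kinases, 1 of 6 tested genes rose. Ifngr1, the ligand-binding chain of the interferon-gamma receptor, read 97.1 and 65.5 without the transgene and 306 and 198 with it. Its groups did not overlap, and its log2 difference was 1.63 ± 0.35 (SE, adjusted p = 0.0315). Beyond the settings in which no pathway call held, it was not called under quantile normalization or with the scanner type as a block. Its partner Ifngr2 was not tested (25.7 and 35.3 against 30.1 and 63.8). For the type I receptor, Ifnar1 gave 0.39 ± 0.31 (SE) and Ifnar2 0.39 ± 0.32 (SE), and a further Ifnar2 probe set gave 1.196 ± 0.46 (SE, adjusted p = 0.142). The kinases Jak1, Jak2 and Tyk2 gave 0.27, 0.56 and -1.16 and did not pass.

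Among STAT and other IRF factors, Irf5 fell and 3 further genes tested did not pass. Irf5, which drives cytokine genes in macrophages, read 322 and 287 without the transgene and 103 and 122 with it. The log2 difference was -1.44 ± 0.27 (SE, adjusted p = 0.0185), opposite in direction to Irf8. Irf9, the DNA-binding part of the ISRE factor, read 577 and 387 against 631 and 559 (0.33 ± 0.28 SE, adjusted p = 0.469).

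Of 24 other interferon-stimulated genes tested, 2 rose and none fell. Isg20, an RNA-degrading exonuclease, read 72.0 and 37.8 without the transgene and 284 and 306 with it, a log2 difference of 2.50 ± 0.38 (SE, adjusted p = 0.00898). Trim30a, a ubiquitin ligase family member, read 14.4 and 9.20 against 55.8 and 42.9, a log2 difference of 1.99 ± 0.48 with wild-type 2 set to the floor (SE, adjusted p = 0.0435). Beyond the settings in which no pathway call held, Trim30a was not called under quantile normalization or with the floor at the 10th or 40th percentile. Nor was it called with the filter at the 60th percentile, robust eBayes or the scanner type as a block, or without wild-type 2. None of the 7 GTPases tested, the 6 feedback inhibitors, the 4 sensors and adaptors or the 12 genes of antigen processing and the interferon-gamma response passed. The members of these lists with the smallest p were Iigp1 (-1.005 ± 0.28 SE, adjusted p = 0.0660), Ptpn6, a phosphatase of blood cells (0.92 ± 0.33 SE, adjusted p = 0.120), Tbk1, a kinase that activates Irf3 (0.99 ± 0.33 SE, adjusted p = 0.101), and Cxcl10, a chemokine (1.49 ± 0.56 SE with wild-type 2 set to the floor, adjusted p = 0.129).

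**Figure D4:**
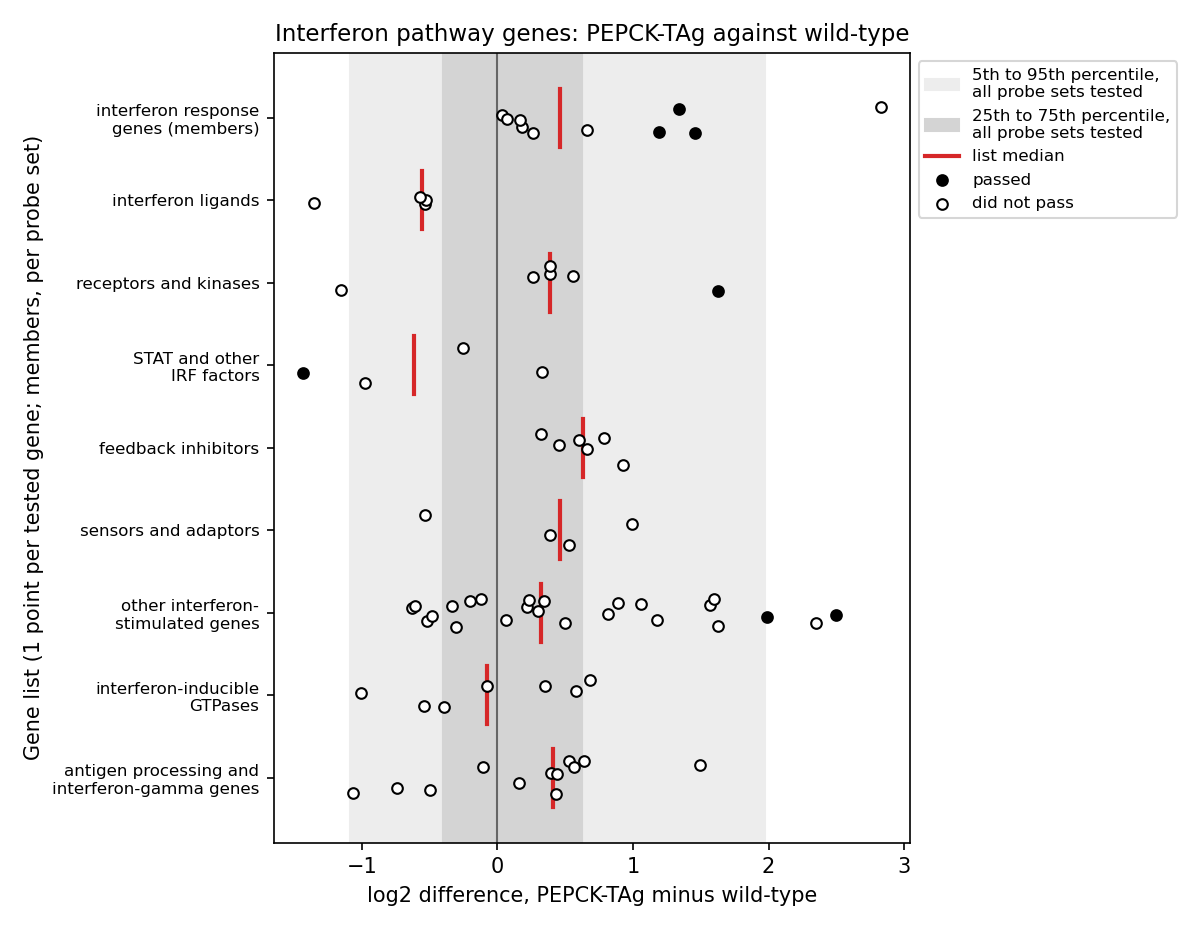
Log2 difference between PEPCK-TAg and wild-type liver for the members and 8 lists of other pathway genes, 1 point per tested gene (per probe set for the members), filled where the adjusted p was under 0.05. Filled points are Rsad2, Irf8 and Gbp2 among the members and Ifngr1, Irf5, Isg20 and Trim30a among the other genes.

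Markers of some blood cells also rose in PEPCK-TAg liver. In bulk RNA, more cells of a type and more RNA per cell cannot be told apart. Between the PEPCK-TAg arrays, PEPCK-TAg 1 was the higher for all 10 member probe sets. It was the higher for 0 of 8 granulocyte, 2 of 10 macrophage and Kupffer cell and 0 of 5 erythroid markers. The same held for 2 of 5 dendritic cell and 2 of 3 lymphocyte markers. Lyz2 and Cd14 were the 2 macrophage markers, and H2-Ab1 and Flt3 the 2 dendritic ones. The part of cell content in this order was not tested. Over all genes tested it was the higher for 2756 of 5954. Over all genes tested, 9.56% passed as higher and 3.34% as lower. Of 8 granulocyte markers tested, 7 rose (Elane did not pass). Their summed signal went from 309 and 303 in wild-type to 5846 and 10187 in PEPCK-TAg liver. Of 10 macrophage and Kupffer cell markers, Lyz2, Cd14 and Cd5l rose, and the sum went from 2718 and 2664 to 5612 and 6685. Marco, a further macrophage marker, lay below the floor on all 4 arrays. The Kupffer cell marker Clec4f gave a log2 difference of 0.82 ± 0.30 (SE, adjusted p = 0.128).

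Of 5 dendritic cell markers tested, only H2-Ab1 rose (1.34 ± 0.31 SE, adjusted p = 0.0385). H2-Aa and Itgax gave log2 differences of 0.43 and 0.33, Flt3 and Cd74 gave -0.25 and -0.40, and none of these passed. Of 5 erythroid markers, 4 rose, and Alas2 did not pass (log2 difference -0.57, limma adjusted p = 0.323). Of 13 lymphocyte markers listed, 10 have a probe set and 3 were tested, with none passing, and Cd3e, of the T cell receptor, read 8.89 to 15.8 on the 4 arrays. The summed signal of those 3 was 271 and 259 against 205 and 165. Of 7 hepatocyte markers, Ttr and Tat fell, and the sum went from 67904 and 71051 to 37373 and 47980. The part of these cell types in the rises of Rsad2, Irf8 and Gbp2 was not tested.

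The genes whose pattern over the 4 arrays was most like a member's were found by the root mean square distance between log2 signals, each centred on its own mean. For Rsad2 they were Snx2 (distance 0.019), Pde7a (0.051) and Tmsb10 (0.060). For Irf8 they were Otud4 (0.039), H2-Ab1 (0.040) and Ccdc80 (0.061), of which H2-Ab1 encodes a chain of MHC class II. For Gbp2 they were Wnk1 (0.036), Ago2 (0.041) and Phf13 (0.043). For Ifit2 they were Specc1 (0.041), Ddit4 (0.22) and Comtd1 (0.31). On wild-type 2 both Ifit2 (3.30) and Specc1 (8.80) lay below the floor and were set to it, which brings them closer. With 4 arrays, many genes can lie this close. Cmpk2, the gene next to Rsad2 in the RefSeq annotation and singled out after its values were seen, read 47.9 and 28.9 without the transgene and 141 and 89.5 with it (1.60 ± 0.42 SE, adjusted p = 0.0564).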

How the data were processed

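Total liver RNA of 2 wild-type and 2 PEPCK-TAg samples was measured on 1 array each. The deposited unit is an intensity, the linear signal of a probe set, which MAS5 computed per the submitters' processing notes. No version was found. The deposited 2% trimmed means were 250.1 to 250.2 on the 4 arrays. Linear scaling does not equalise distributions, and signals near background or saturation shrink a fold. Detection calls were not used.

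Arrays were scaled to the mean of their trimmed means without the 66 controls. The floor was the 20th percentile of pooled signals (10.6) and the filter the 40th (41.3), which set aside 4545 probe sets. The moderated test of limma 3.58.1 (R 4.3.3, trended eBayes, two-sided, 6.60 degrees of freedom, no block) compared the groups. Its p-values were adjusted by Benjamini-Hochberg across all 7877. The fit was tested on simulated data with the same spread for every probe set, independent arrays and changes in bright probe sets alone. That trial does not cover genes whose arrays differ widely within a group or lie at the floor. With 2 arrays a group, exact permutation reaches no p below 0.333. A signal under the floor enters at the floor, so the size of such a difference depends on it.

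Names come from GEO's platform annotation, which can be old and gives 1 symbol for 10833, several for 396 and none for 1193. The text names all members and, from each pathway list, up to 4 genes past the threshold or else the 1 with the smallest p. It also names the ligands, receptors, Jak kinases and Irf9. Of the cell type markers, it names those that passed or define a type and some others that did not pass. The members, the lists and the tests were chosen with earlier results of these data known.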

Additional observations from a re-analysis of the deposited data

How the results depend on the processing

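Of 985 probe sets, 3 members and 4 pathway genes called, the numbers moved as follows. Quantile normalization called 0 members (4 at an unadjusted p under 0.05). It moved the median difference of all probe sets by -0.14, and relative to that median Rsad2, Irf8 and Gbp2 stood at 1.27, 1.195 and 1.003. Relative to the median of the main fit they stood higher, at 1.41, 1.29 and 1.14. Testing without the filter called 165 probe sets, 0 members and 0 pathway genes in limma (2476, 3 and 13 unadjusted). Leaving out the intensity trend called 1 member, and an adjusted p of 0.1 called 1621 probe sets and 10 pathway genes. The mean over a gene's probe sets called 7 pathway genes. With the fluidics station as a block, which takes PEPCK-TAg 2 out of the comparison, limma called 0 probe sets, 0 members and 0 pathway genes (1432, 3 and 8 unadjusted). Leaving out 1 array at a time called 127 to 1689 probe sets, 0 to 5 members and 0 to 19 pathway genes.

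The sign turned for 4 member probe sets that did not pass. For Ifit1 the log2 difference was -0.11 under quantile normalization, -0.064 with the floor at the 40th percentile, -0.96 with the scanner type as a block (which takes out wild-type 2), and -0.96 to 1.32 with 1 array left out. For Ifit3 it was -0.25 under quantile normalization, -0.81 with the scanner block and -0.81 to 0.87 with 1 array left out. For Isg15 it was -0.038 with the scanner block and -0.038 to 0.56 with 1 array left out. For the Irf7 probe set with no suffix it was -0.18, -0.40 and -0.40 to 0.54 in the same order as Ifit3. Apart from what the alternatives' own construction shows, the cause was not tested. No alternative run turned the sign of Rsad2, Irf8, Gbp2, Ifit2, Irf1 or the other Irf7 probe set.

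The replicate block called 1873 probe sets, 11 pathway genes and 4 members, with Ifit2 added (adjusted p = 0.00562). The numbers were not taken as pairs of animals. The arrays numbered 1 share a scan day, fluidics station and scanner type, and those numbered 2 share none of these. The gaps between array 1 and array 2 correlated between the groups at 0.253 across probe sets, which are not independent replicates. Scan day as a fixed block left no residual degrees of freedom. Scan day and chip lot as random blocks, chosen after seeing the data, could not be fitted with 4 arrays. The number of arrays limits the precision.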
